A study of Mus musculus with 12 samples.

Results

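The genes of muscle contraction and of the myogenic programme were followed in cortical neurospheres, which are free-floating cultures of neural progenitors, and were read against RNA of whole mouse embryos, which contain all 3 kinds of muscle. The list holds 36 genes chosen by symbol and known function. Of these, 34 had a probe on the array (38 probes in all, with 5 for Ttn), among 15081 genes whose probe carried 1 symbol; Myh3 and Myh7 had no probe under that name. By the tissue in which they are best known, 17 listed genes were taken as skeletal, 11 as cardiac and 6 as smooth muscle genes, and Des and Ttn as shared; several cardiac genes, such as Actc1, Myl4 and Tnnc1, are also used by embryonic or slow skeletal fibres.

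There were 12 two-colour arrays, 3 each for control cultures at 24 h, control cultures at 108 h, prominin cultures at 24 h and prominin cultures at 108 h. All neurospheres came from the cerebral cortex at gestational day 12.5 and were grown without serum, in the presence of basic FGF, EGF and LIF. The sample labels describe controls as kept in growth medium alone, whereas the series' design text speaks of GFP neurospheres, so it is unsettled whether controls received a control virus. Prominin cultures received an adenovirus expressing CD133/R-prominin1, and if controls had no virus, its effect and that of prominin cannot be told apart. The treatment text gives 108 h for the prominin samples of 24 h as well (the titles were followed). Each neurosphere RNA (Cy5) was set against 1 shared RNA of whole C57/Bl6 embryos of gestational day 12 (Cy3), without a dye swap. Whether the 3 arrays of a group came from separate cultures is not stated; the p-values then cover only the spread between the arrays, which may be technical.

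Values are log2 ratios of neurosphere to embryo RNA, centred on each array so that 0 is the median probe. Which way the deposited ratio runs is not stated in the labels, and it was read as neurosphere over embryo because the neural stem genes then lie high. If it ran the other way, every sign in the text would turn, and the 15 members called below the median probe would lie above it. An exact 0 and a single repeated top value were read as codes and taken as missing. Of 10 tested probes of neural stem and radial glia genes, which define the labelled culture, 8 were then called above the median probe and 0 below it (30.4 and 25.5% over all tested probes). Gfap lay at 8.56, Slc1a3 at 5.89 and 5.68 and Sox2 at 3.82, while Nes lay at 0.34 (limma adjusted p = 0.285) and Hes5 at 0.27 (0.718). Since the direction was taken from this list, its sign is no independent check of the culture. Control and prominin replicate 1 at 24 h stood apart, with 10404 and 11919 measured probes and 2540 and 2328 top codes. The remaining 24 h arrays had 13873 to 14465 measured probes and 903 to 1123 top codes. Every 108 h array had more measured probes (15944 to 16598) and fewer top codes (32 to 184). Ratios of whole numbers up to 20 were also more frequent on the 24 h arrays (16.8 to 40.2%) than on the 108 h arrays (1.94 to 5.34%). How far this gap enters the time and interaction comparisons was not tested. On control 24 h replicate 2 every ratio below −5 was a whole number of thousandths (100% of them, against 1.33 to 3.51% on the other arrays), so its lowest values move in steps.

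Muscle contracts when myosin heads of the thick filament pull on actin of the thin filament. In striated muscle, troponin on the thin filament releases this motion when calcium leaves the sarcoplasmic reticulum, where calsequestrin holds it. Smooth muscle has no troponin and is switched on by phosphorylation of a myosin light chain. The myogenic factors Myf5, Myod1, Myog and Myf6 turn mesodermal cells of the somites into skeletal muscle, whereas the heart forms without them. Serum response factor, which binds the CArG box, is shared by the promoters of many contractile genes of all 3 muscle types.

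Most members that could be tested were among the lowest values of the table. Of the 17 members with at least 2 measured values in every group, 15 lay below the median probe (limma, adjusted p under 0.05) and 0 above it; over all 9155 tested probes 25.5% were called below, 30.4% above and 55.8% in either direction. Their median level was −5.33, against 0.23 over all tested probes, and 14 of the 17 lay in the lowest 5% of tested probes (under −3.05) and 9 in the lowest 1% (under −5.29); with the ratio turned they would be in the highest 5% and 1%. Of the 21 member probes that were not tested, 12 had a mean below 0 and 9 above it. Against the embryo reference itself, without centring, 17 of 17 were called lower, where 61.9% of all tested probes were called lower and 6.01% higher. In bulk RNA, fewer cells of a type and less RNA per cell cannot be told apart. Of the 189 measured values of these members, 175 were below 0, and for 14 of the 17 every measured value was.

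**Figure D1:**
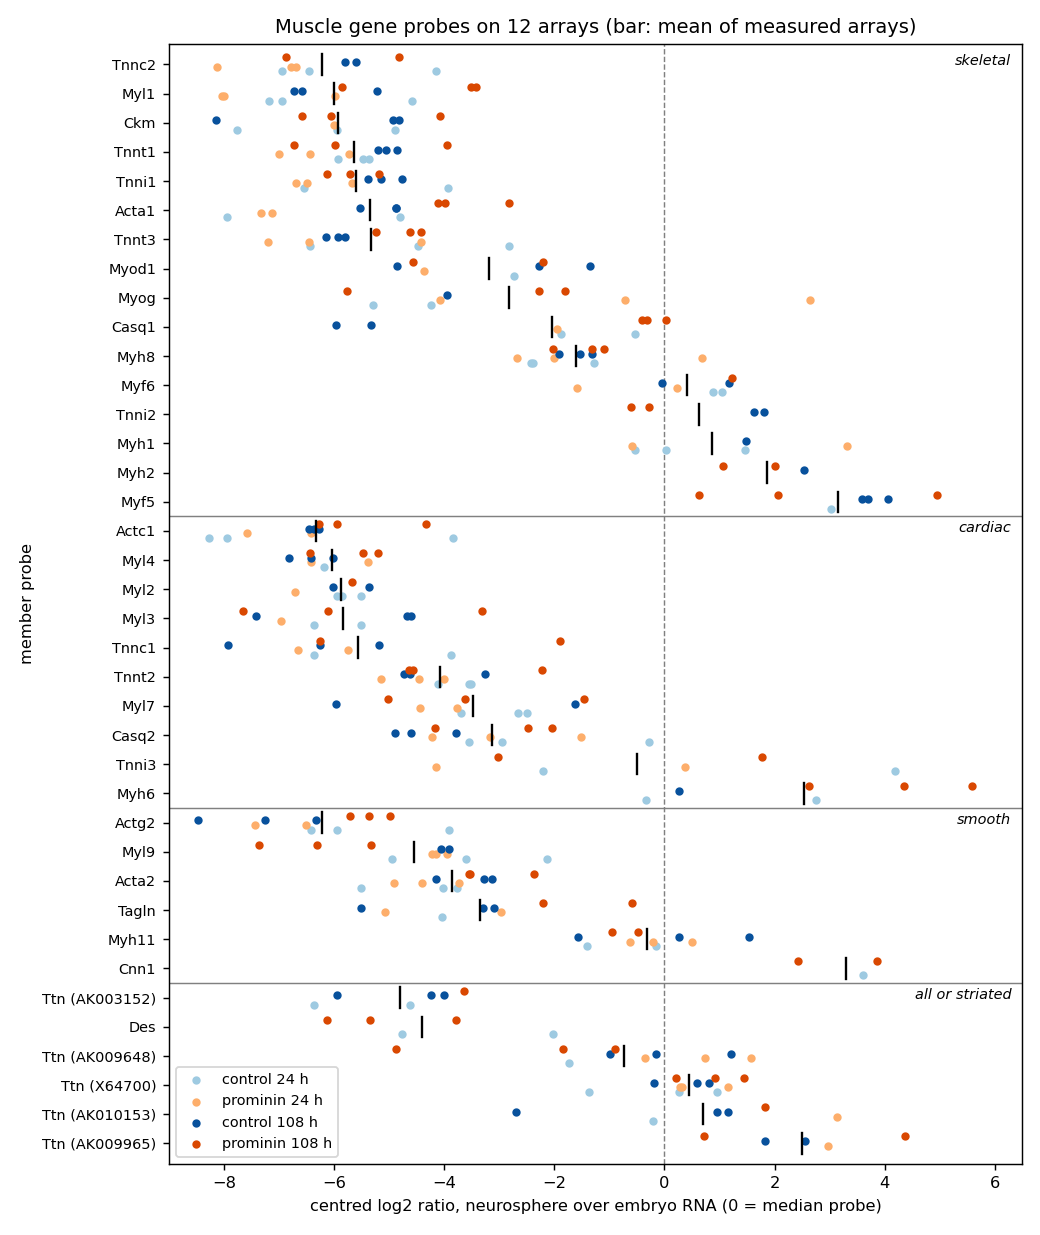
Centred log2 ratios (x axis; 0 is the median probe) of all 38 member probes on the arrays where they were measured, coloured by group; the black bar is the mean of the measured arrays, and horizontal lines divide skeletal, cardiac, smooth and shared genes. Most troponin, actin and light chain probes lie between −8 and −3, whereas Myf5, Myh6, Cnn1 and 4 of the 5 Ttn probes lie near or above 0.

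Actins of all 3 muscle types were low. Actc1, the actin of the heart and of early skeletal muscle, had the lowest level of the members, −6.39 (SE 0.41, limma adjusted p = 7.22e-07), and stood 12th from the bottom of 9155 probes. Its values were −3.84, −7.94 and −8.27 in controls at 24 h, −6.42 and −7.58 in prominin cultures at 24 h (1 coded 0), −6.27, −6.37 and −6.46 in controls at 108 h, and −4.33, −6.28 and −5.94 in prominin cultures at 108 h. Control 24 h replicate 1 was the highest of the 11 values, and the groups overlapped between treatments at 24 h. Actg2, the smooth muscle actin of the gut, lay at −6.28 (SE 0.30, limma adjusted p = 1.06e-07), Acta1, the skeletal actin, at −5.58 (SE 0.33, limma adjusted p = 9.67e-07) and Acta2, the smooth muscle actin of vessels, at −3.86 (SE 0.24, limma adjusted p = 2.25e-07). Acta2 was measured on all 12 arrays, with −4.02, −3.77 and −5.51 in controls at 24 h, −4.41, −3.73 and −4.92 in prominin cultures at 24 h, −3.27, −4.14 and −3.14 in controls at 108 h and −3.55, −3.54 and −2.37 in prominin cultures at 108 h. All 12 were thus below −2, and the 24 h and 108 h arrays overlapped in controls but not in prominin cultures. There 10.1% of all tested probes were higher at 108 h without overlap. Muscle actins are close to one another in sequence, and how far their probes share targets was not tested. Without centring, the level of Acta2 against the embryo RNA corresponds to a ratio 44.2-fold lower. No fold is given for the other 3, which had coded zeros; on control 24 h replicate 2 the deposited values of Acta1 and Actc1 were both −9.97, next to the lower end of the table. The non-muscle actins, which every cell uses, did not share this: Actb lay at 0.89 (limma adjusted p = 0.00247) and −0.08 (0.823) by its 2 probes and Actg1 at 0.66 and 0.55 (0.0124 and 0.0456).

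**Figure D2:**
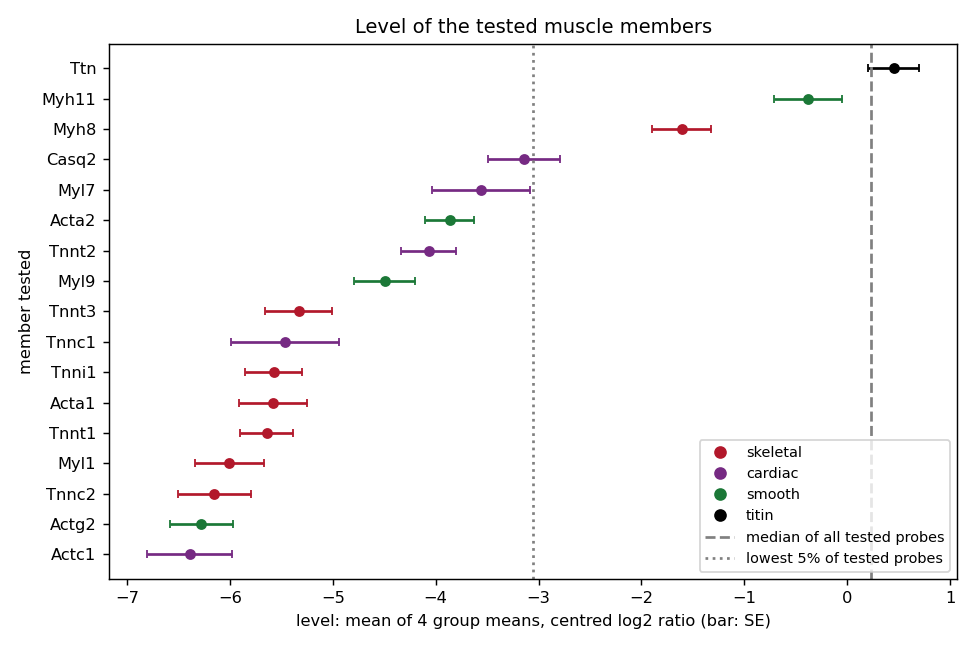
Level (x axis, mean of the 4 group means of the centred log2 ratio, with its SE as a bar) of the 17 tested members, coloured by muscle class; the dashed line is the median of all 9155 tested probes and the dotted line their lowest 5%. Actc1, Actg2, Tnnc2 and Myl1 lie below −6, and Myh8, Myh11 and Ttn lie apart from the rest, above −2.

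Promoters of 29 listed genes were present in the RefSeq table (GRCm38.p6, 250 bases before to 50 after each annotated start, 33 windows). A CArG box, searched as the exact pattern CCWWWWWWGG with W for A or T, was found in 5 of the 33 (15.2%), against 1.63% of all 32851 windows. Boxes with a mismatch, which also occur in lower case in the Acta1 and Actc1 windows below, were not counted. Myl3, 1 of the 5, was not tested for its level. The other 4, Acta1, Actc1, Myl7 and Myl9, were called low, as were 15 of all 17 tested members. These 4 are shown because they cover all 3 muscle classes among the genes that were low together, with the CArG box in capitals and each window read 5′ to 3′ on the strand of the gene. They are chr8:123894726-123895025 (minus strand), chr2:114052826-114053125 (minus), chr11:5898733-5899032 (minus) and chr2:156775214-156775513 (plus).
Acta1: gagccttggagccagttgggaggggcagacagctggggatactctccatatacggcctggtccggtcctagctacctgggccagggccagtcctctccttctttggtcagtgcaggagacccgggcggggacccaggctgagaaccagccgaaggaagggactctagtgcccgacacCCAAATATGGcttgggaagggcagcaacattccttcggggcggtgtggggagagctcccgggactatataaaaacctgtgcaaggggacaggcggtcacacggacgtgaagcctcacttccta
Actc1: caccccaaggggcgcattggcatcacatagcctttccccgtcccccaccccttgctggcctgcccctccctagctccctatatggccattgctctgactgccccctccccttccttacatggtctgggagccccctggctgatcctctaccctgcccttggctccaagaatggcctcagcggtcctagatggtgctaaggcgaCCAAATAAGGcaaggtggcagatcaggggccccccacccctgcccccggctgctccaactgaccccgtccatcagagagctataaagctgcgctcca
Myl7: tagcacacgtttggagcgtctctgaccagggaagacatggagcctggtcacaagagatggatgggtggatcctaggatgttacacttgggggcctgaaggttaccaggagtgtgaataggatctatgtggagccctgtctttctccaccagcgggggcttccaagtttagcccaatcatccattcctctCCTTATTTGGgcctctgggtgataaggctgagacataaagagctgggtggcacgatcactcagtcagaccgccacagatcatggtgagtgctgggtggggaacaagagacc
Myl9: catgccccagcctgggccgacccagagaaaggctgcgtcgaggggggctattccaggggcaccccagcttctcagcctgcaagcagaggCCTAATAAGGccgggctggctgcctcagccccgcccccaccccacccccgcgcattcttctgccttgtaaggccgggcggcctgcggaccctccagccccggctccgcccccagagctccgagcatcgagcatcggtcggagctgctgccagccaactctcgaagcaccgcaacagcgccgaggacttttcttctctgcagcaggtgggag
The exact CArG match begins 73 bases before the annotated start in Acta1, 47 in Actc1, 61 in Myl7 and 161 in Myl9. The E-box CANNTG, which myogenic factors bind, is a short motif found in 29 of the 33 windows (87.9%) and in 72.3% of all windows, and TATAAA, searched on both strands, in 11 (33.3%) and 13.6%. CArG boxes and CANNTG read the same on both strands. A match describes the letters of the window only.

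Myosin light chains, which brace the lever arm of the myosin head, were low in all 3 classes. Myl1, the essential light chain of fast skeletal muscle, lay at −6.01 (SE 0.34, limma adjusted p = 1.28e-07), Myl9, the regulatory light chain of smooth muscle and of many non-muscle cells, at −4.50 (SE 0.30, limma adjusted p = 8.52e-07) and Myl7, the atrial regulatory light chain, at −3.56 (SE 0.48, limma adjusted p = 2.01e-04). The values of Myl1 were −4.59, −6.94 and −7.18 in controls at 24 h, −5.99, −8.00 and −8.03 in prominin cultures at 24 h, −6.73, −5.22 and −6.59 in controls at 108 h and −3.43, −5.86 and −3.51 in prominin cultures at 108 h. No array reached −3. Myl2, Myl3 and Myl4, the ventricular and atrial chains, had too few values for the test, yet every one measured was low, with means of −5.87 ± 0.44 (SD, n = 7 arrays), −5.85 ± 1.45 (n = 9) and −6.04 ± 0.56 (n = 9). The non-muscle light chain Myl6 lay at 0.33 (limma adjusted p = 0.163).

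Troponins split into 2 kinds. Tnnc2 and Tnnt3 of fast fibres, Tnni1 and Tnnt1 of slow fibres, and Tnnc1 and Tnnt2 of the heart were all called below the median probe. Their levels were −6.15 (SE 0.36, Tnnc2), −5.64 (SE 0.25, Tnnt1), −5.58 (SE 0.27, Tnni1), −5.46 (SE 0.53, Tnnc1), −5.33 (SE 0.33, Tnnt3) and −4.07 (SE 0.26, Tnnt2), with limma adjusted p from 3.25e-08 to 4.43e-05. Tnnt1, which ties troponin to tropomyosin in slow fibres, gave the smallest p of all members. It ran at −5.48, −5.36 and −5.93 in controls at 24 h, −7.01, −5.73 and −6.45 in prominin cultures at 24 h, −5.20, −4.85 and −5.07 in controls at 108 h and −3.95, −6.73 and −5.99 in prominin cultures at 108 h. Its 12 arrays were all below −3, and controls at 108 h were closest together. The inhibitory subunits of fast fibres and of the heart, Tnni2 and Tnni3, were not tested: Tnni2 was coded 0 on 8 arrays (all 6 at 24 h) and measured between −0.61 and 1.81 on the other 4, and Tnni3 was coded 0 on 6 and ran from −4.16 to 4.19 on the other 6.

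The cardiac troponin gene Tnnt2 and the cardiac calsequestrin gene Casq2 were also measured on every array. Tnnt2 ran at −3.51, −3.55 and −4.11 in controls at 24 h, −4.00, −4.46 and −5.14 in prominin cultures at 24 h, −4.63, −4.72 and −3.27 in controls at 108 h and −2.23, −4.58 and −4.65 in prominin cultures at 108 h. Prominin 108 h replicate 1 was the highest and prominin 24 h replicate 3 the lowest. Fast skeletal Tnnt3 ran at −2.83, −4.48 and −6.44, at −4.43, −7.20 and −6.45, at −5.80, −6.15 and −5.93, and at −4.63, −4.42 and −5.24 in the same order of groups. At 24 h its arrays spread more widely than at 108 h (SD 1.81 and 1.43 against 0.18 and 0.43).

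The heavy chains, the motor subunits themselves, were less uniform. Myh8, the perinatal skeletal heavy chain, lay at −1.61 (SE 0.29, limma adjusted p = 6.8e-04), with −2.39, −1.28 and −2.42 in controls at 24 h, 0.68, −2.02 and −2.67 in prominin cultures at 24 h, −1.32, −1.92 and −1.53 in controls at 108 h and −2.02, −1.32 and −1.10 in prominin cultures at 108 h. Prominin 24 h replicate 1 alone was above 0. Myh11, the smooth muscle heavy chain, lay at −0.38 (SE 0.33, limma adjusted p = 0.349) relative to the median probe, and at −1.92 against the reference without centring (limma adjusted p = 9.62e-04). It was coded 0 on 2 arrays, so no fold is given. Adult fast Myh1 and Myh2 were measured on 6 and 3 arrays, with means of 0.86 ± 1.52 and 1.87 ± 0.74, and 3 of the 6 values of Myh1 were ratios of whole numbers up to 20. Myh6, the atrial heavy chain, had 6 values and a mean of 2.54 ± 2.28; those of prominin cultures at 108 h were 2.63, 4.35 and 5.58, and the only control value at 108 h was 0.26. With 2 control and 0 prominin values at 24 h and 1 control value at 108 h, Myh6 was not tested.

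The scaffold gene Ttn, whose protein spans the sarcomere from its edge to its middle, had 5 probes that disagreed. The probe measured on all arrays (X64700) lay at 0.45 (SE 0.25, limma adjusted p = 0.136), with −1.36, 0.96 and 0.27 in controls at 24 h, 1.15, 0.33 and 0.29 in prominin cultures at 24 h, 0.58, −0.19 and 0.82 in controls at 108 h and 0.20, 1.44 and 0.93 in prominin cultures at 108 h. Only 2 of its 12 values were below 0. Without centring it turned to −1.15 against the reference (limma adjusted p = 0.00231), and with the probes of a gene averaged it turned to −0.36. With control 24 h replicate 1 left out it lay at 0.60 and was called above the median probe. The other Ttn probes had means of −4.80 ± 1.10 (n = 6, AK003152), −0.73 ± 1.86 (n = 10), 0.69 ± 1.99 (n = 6) and 2.49 ± 1.35 (n = 5). Which of them report the titin transcript was not tested. Des, the intermediate filament protein of all muscle types, was coded 0 on 7 arrays and lay between −6.14 and −2.03 on the other 5.

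Of the calcium storage and energy supply genes, Casq2 and Ckm were low and Casq1 was uneven. Casq2 lay at −3.14 (SE 0.35, limma adjusted p = 1.93e-05). It ran at −0.28, −3.55 and −2.94 in controls at 24 h, −4.22, −1.52 and −3.17 in prominin cultures at 24 h, −3.79, −4.90 and −4.61 in controls at 108 h and −2.48, −2.05 and −4.17 in prominin cultures at 108 h, so control 24 h replicate 1 was again the highest. Ckm, the creatine kinase of muscle, missed the test because 2 of 3 prominin arrays at 24 h were coded 0, and its 10 values had a mean of −5.92 ± 1.31, all of them below −4. By contrast Ckb, the brain isoform of the same enzyme, was above the median probe at 3.08 (SE 0.48, limma adjusted p = 3.36e-04). Casq1, the skeletal calsequestrin, had 8 values of −2.05 ± 2.34, with −5.96 and −5.33 in controls at 108 h and 0.03, −0.32 and −0.41 in prominin cultures at 108 h. These 2 groups did not overlap, and with 1 prominin value at 24 h the probe was not tested. Of all tested probes, 7.85% were higher and 8% lower without overlap in prominin cultures at 108 h than in controls.

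None of the 4 myogenic factors had enough values for the test. Myod1 was low wherever it was measured (−3.19 ± 1.38, n = 7, all 7 below 0), and Myog was low on 8 of its 9 arrays (−2.83 ± 2.63), with 2.64 on prominin 24 h replicate 1. Myf5, the first of these factors to act in the somite and one that is also transcribed in parts of the embryonic brain in mice, was not low. It was coded 0 on 5 of the 6 arrays at 24 h, and at 108 h it stood at 3.58, 4.06 and 3.70 in controls and 4.95, 0.63 and 2.07 in prominin cultures. All 7 values were above 0 (mean 3.14 ± 1.42), and the deposited values, before centring, ran from −1.15 to 3.22, with 2 of the 7 below 0. Myf6, which acts late in fibre formation, was not low relative to the median probe either, with 7 values between −1.60 and 1.22, of which 2 were below 0. Before centring, however, its deposited values ran from −2.585 to −0.132, so all 7 were below the embryo reference.

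The smooth muscle markers Tagln and Cnn1 also went untested. Tagln, an actin-binding protein of smooth muscle, had 8 values, all below 0 (−3.35 ± 1.57), and lay at −0.58 and −2.21 in prominin cultures at 108 h against −3.10, −5.52 and −3.30 in controls at 108 h. Cnn1, calponin of differentiated smooth muscle, was coded on 9 arrays and was 2.43, 3.61 and 3.86 on the other 3. Mural cells and fibroblasts share smooth muscle genes. Of 10 tested probes of their list, 7 were called below the median probe and 1 above it (25.5 and 30.4% over all tested probes). The 7 were of fibroblast or matrix genes, with Col1a1 at −6.20, Dcn at −5.75, Col1a2 at −5.62 and Col3a1 at −4.81. Thy1, which neurons also express, was above at 1.53. Second probes differed for Fn1 (−2.25 and 0.22) and for Pdgfra (−3.51, and an untested 2.74 ± 1.21, n = 6). The array medians of this list ran from −4.36 to −3.26 in controls at 24 h, −4.21 to −1.32 in prominin cultures at 24 h, −4.44 to 0.61 in controls at 108 h and −5.21 to −3.71 in prominin cultures at 108 h. Of the pericyte markers, Pdgfrb was coded 0 on 8 arrays and Rgs5 was measured on 10 (−0.48 ± 1.05). Rgs5 was not called (level −0.46, limma adjusted p = 0.311). Kcnj8 (−2.17 ± 1.29, n = 9) and Abcc9 (−0.40 ± 0.96, n = 6) were not tested. The part of mural cells and fibroblasts in the smooth muscle values was not tested. The endothelial markers Kdr (−2.74, SE 0.32, limma adjusted p = 2.99e-05, the 1 tested probe), Cdh5 (−4.60 ± 1.71, n = 7) and Pecam1 (−2.45 ± 1.61, n = 8) were below the median probe as well.

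**Figure D3:**
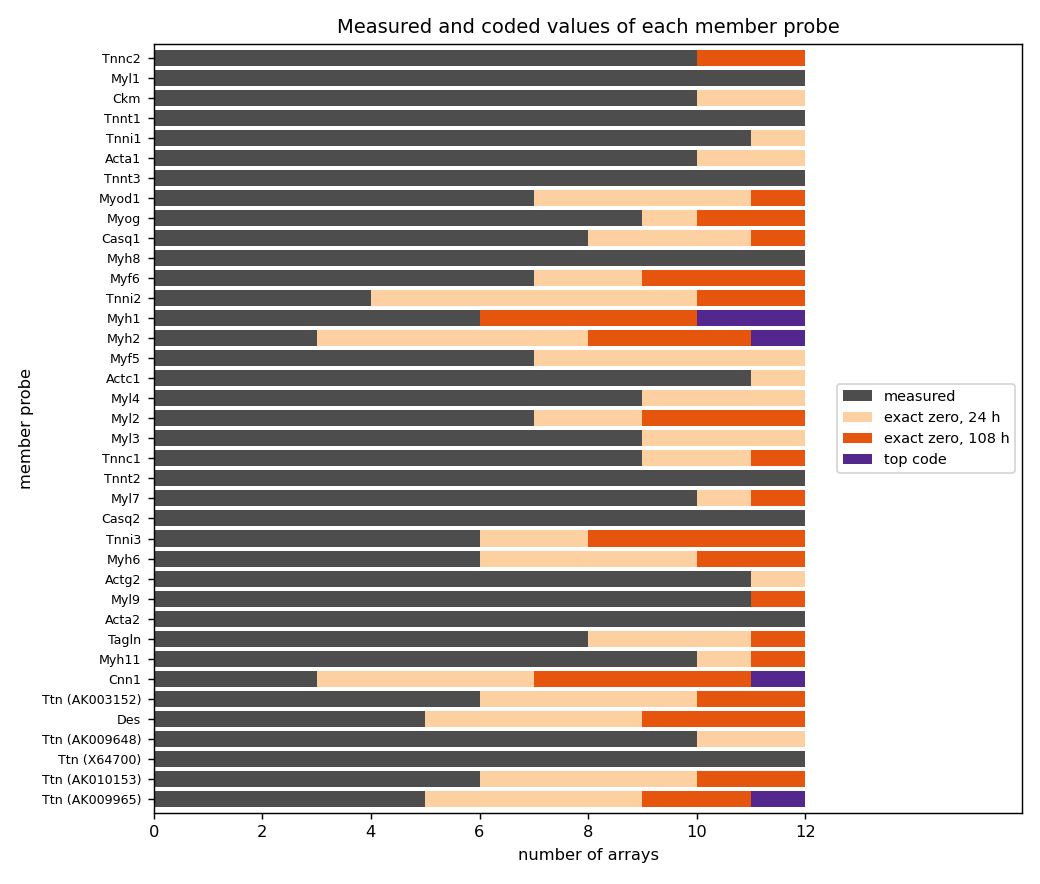
Number of arrays (x axis, of 12) on which each member probe was measured (dark grey), coded as an exact 0 at 24 h or 108 h (orange shades) or given the top code (purple), in the same order as the plot of all members. Myh2 and Cnn1 were measured on 3 arrays, Tnni2 on 4, Des on 5 and Tnni3 on 6.

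Coded values touched the members unevenly. Of the 456 member values 121 were exact zeros (26.5%), against 28.3% over all probes, and 5 were top codes. Zeros made up 33.3% of member values at 24 h and 19.7% at 108 h, against 32.3 and 24.2% over all probes. The 17 tested probes held 15 zeros and 4 ratios of whole numbers up to 20 among 189 measured values, whereas the 21 untested probes held 106 zeros and 13 such ratios among 141. Zeros also fell on probes whose other values were very low: the table holds no value below −10, and among probes with at least 6 measured values the share of zeros was 19.1% where the mean deposited value was below −5, 14.0% between −5 and −1, and 24.6% between −1 and 1. Whether a zero on a low member such as Acta1 or Myl3 stands for a ratio beyond that limit was not tested. Of the 21 untested probes, 8 were below 0 on every array where they were measured, 4 above 0 on every such array and 9 on both sides.

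By the class medians of their tested members, skeletal, cardiac and smooth muscle were all below the median probe on 12 of 12 arrays. The probes that enter a median differ between arrays, as coded values drop out. Of the untested probes, 4 of 9 skeletal, 4 of 5 cardiac and 1 of 2 smooth ones had a mean below 0. All 7 tested skeletal members, all 5 cardiac and 3 of 4 smooth muscle members were called lower (25.5% over all tested probes), with median levels of −5.58, −4.07 and −4.18. The array medians averaged −5.48 ± 0.92 (SD, n = 12 arrays) for skeletal, −4.31 ± 1.00 for cardiac and −4.12 ± 0.63 for smooth muscle members. Skeletal members were below the cardiac ones on 10 of 12 arrays and below the smooth ones on 11, and cardiac members were below the smooth ones on 9. These orders rest on 7, 5 and 4 probes and were not tested. They also depend on the codes and the probes used. With exact zeros kept the skeletal median was −2.65, above the cardiac (−4.45) and smooth (−3.75) medians, and with both codes kept it was −3.13, against −4.92 and −4.23. With 1 value per group enough, the cardiac median was −5.71 over 8 probes. The cardiac array medians ranged most widely, from −5.97 on a control array at 108 h to −2.23 on prominin 108 h replicate 1.

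**Figure D4:**
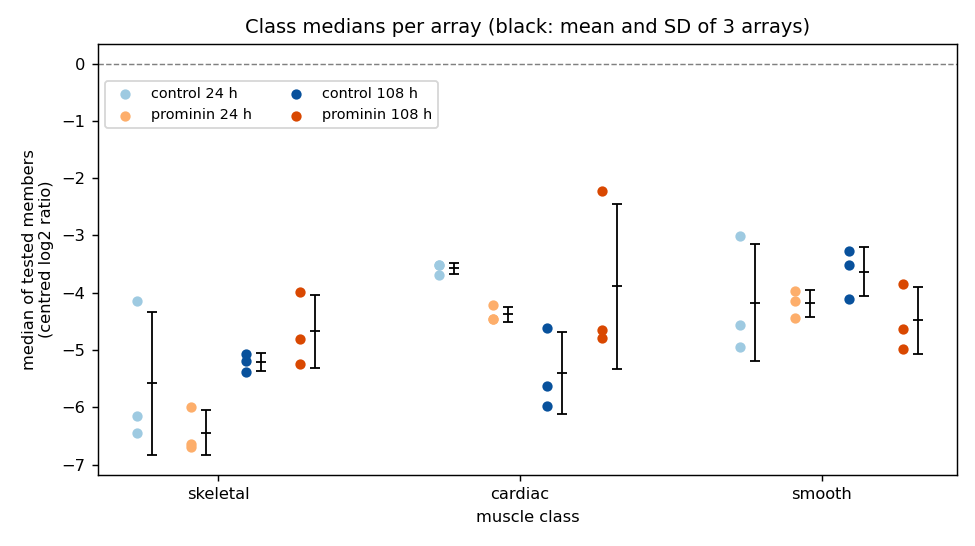
Median centred log2 ratio (y axis) of the tested skeletal (7), cardiac (5) and smooth muscle (4) members on each array, by group; black marks are the mean and SD of the 3 arrays of a group. All 36 medians lie below −2, and the groups overlap for most pairs of the skeletal and smooth classes. In the cardiac class, controls at 24 h, prominin cultures at 24 h and controls at 108 h do not overlap with one another.

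Genes outside the list gave a mixed picture, by lists written from general knowledge. Of 28 tested probes of other muscle genes, 14 were called below the median probe and 5 above (25.5 and 30.4% over all probes), with a median of −0.89. By smallest p these began with Sln, a regulator of the calcium pump (−6.30, SE 0.40), the tropomyosin gene Tpm1 (−2.41, SE 0.18), Dmd, the dystrophin gene, which also has brain and glial forms (2.80, SE 0.24), and the fast calcium pump gene Atp2a1 (−5.33, SE 0.46), with limma adjusted p of 6.69e-07 to 5.5e-06. Of 5 tested regulators 0 were called lower and 1 higher, the homeobox gene Meox2 (2.13, SE 0.67, limma adjusted p = 0.0186). The cardiac factor Nkx2-5 lay at −0.85 (0.0926), Mef2d at −0.61 (0.156) and the somite factor Tcf15 at 0.34 (0.509). Srf, the gene of serum response factor, lay at −0.10 (0.724). Of 24 probes of non-muscle counterparts, 7 were called lower and 10 higher, with a median of 0.51. The first by p were Actn4 (−2.94) and Tagln2 (−2.30), below the median probe, and Vim (2.76) and Tpm3 (2.51, and −0.16 by its other probe), above it.

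The comparison of prominin with control cultures at 24 h asked which genes differed soon after treatment, and no member passed the test. The share of all probes called was 0%, with 419 of 9155 at an unadjusted p under 0.05, of which 0 were members (limma). Of the 17 tested members 13 were lower and 4 higher, the median difference being −0.81, against −0.10 over all tested probes. Lowest by p were Actg2 (−1.55, SE 0.90) and Tnnt3 (−1.44, SE 0.93), and of those with higher values Ttn by X64700 (0.63, SE 0.69) and Myh8 (0.69, SE 0.82), each with a limma adjusted p of 0.998. Actg2 ran at −3.91, −5.94 and −6.42 in controls and −6.50 and −7.44 in prominin cultures, which did not overlap, as was also seen for Myl7; 9.99% of all tested probes were lower without overlap, and 6.49% higher. Centring took out a difference of 0.68 between these groups. Without it Actg2 stood at −0.76, Tnnt3 at −0.76, Ttn at 1.31 and Myh8 at 1.37. Because no deposited value lies below −10, the lowest centred value possible was −8.53 to −7.96 in controls and −9.01 to −8.62 in prominin cultures. The part of this limit in these differences was not tested. With exact zeros kept, Actg2 turned to 1.56. Without control 24 h replicate 1 Actg2 was −0.81, Tnnt3 −0.58 and Ttn −0.041, and without prominin 24 h replicate 1 Myh8 was −0.30. Tnnt3 ranged from −2.36 to −0.58 over the arrays left out.

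The later time point, 108 h, tested for differences after longer culture, and again no member passed (0% of all probes called, 624 at an unadjusted p under 0.05, 2 of them members). Of the 17 members 12 were higher and 5 lower, where 50.1% of all tested probes were higher. The median difference was 0.43, against 0.004 over all tested probes. Myl9 was −4.07 and −3.91 in controls (1 coded 0) and −7.37, −6.31 and −5.32 in prominin cultures, and the groups differed by −2.34 (SE 0.88, limma adjusted p = 0.717). Actg2 went the other way, with −6.34, −7.26 and −8.47 in controls and −4.98, −5.71 and −5.37 in prominin cultures, and the groups differed by 2.00 (SE 0.81, limma adjusted p = 0.717). In both the groups did not overlap, nor did they for Acta1 and Tnnt3, which were higher; 7.85% of all tested probes were higher and 8% lower without overlap, against 3 and 1 of 17 members. Next by p were Myl1 (1.91, SE 0.96, limma adjusted p = 0.725) and Myh11 (−0.79, SE 0.94, 0.911). Myh11 turned to 0.22 with exact zeros kept, and was −1.62 with control 108 h replicate 1 left out and −0.060 with replicate 3 of that group left out. Centring took out a difference of −1.08 between these groups; without it Actg2 stood at 0.92, Myl1 at 0.84 and Myl9 at −3.50. Because no deposited value lies below −10, the lowest centred value possible was −9.16 to −8.68 in controls and −8.22 to −7.41 in prominin cultures. The Actg2 value of −8.47 in controls lies below the latter range. Myl9 at −7.37, deposited as −9.97, stood next to the limit of its array, −7.41. The part of this limit in these differences was not tested.

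The interaction asked whether the prominin difference changed from 24 h to 108 h. No member passed (0% of all probes, 545 at an unadjusted p under 0.05, 2 of them members). Actg2 had a value of 3.55 (SE 1.21, limma adjusted p = 0.817), followed by Myl1 (3.02, SE 1.35, 0.817), and on the lower side by Myl9 (−1.80, SE 1.18, 0.829) and Myh11 (−1.47, SE 1.33, 0.883). The centring took out −1.75 here, and without it Actg2 was 1.69. With both codes kept, Actg2 turned to −0.44, and with exact zeros kept Myh11 turned to 0.16. Myl9 was −1.12 without control 24 h replicate 2, and Myh11 was −2.30 with control 108 h replicate 1 left out and −0.74 with replicate 3 of that group left out.

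Culture time was compared within each treatment and pooled, and no member passed in any of the 3 comparisons (background 0% in controls, 0.0218% in prominin cultures, all higher, and 0.0546% pooled, with 0.0437% higher and 0.0109% lower; 635, 807 and 888 probes at an unadjusted p under 0.05, of which 2, 3 and 4 were members). In controls Casq2 differed by −2.18 between 108 h and 24 h (SE 0.98, limma adjusted p = 0.708) without overlap, and Actg2 by −1.93 (SE 0.81, 0.697). On the higher side were Acta2 (0.92, SE 0.67, 0.81) and Acta1 (1.28, SE 0.93, 0.816), the latter turning to −0.77 with exact zeros kept. Without control 24 h replicate 1 Casq2 was −1.20 and Actg2 −1.18; Acta2 was 0.39 with replicate 3 of that group left out. Casq2 was the only member lower without overlap and Tnnt1 the only one higher, against 10.2 and 8.4% of all tested probes. In prominin cultures Acta1 stood at −7.13 and −7.32 at 24 h (1 coded 0) and −3.98, −4.11 and −2.82 at 108 h, so that the times differed by 3.59 (SE 0.93, limma adjusted p = 0.273). Myl1 differed by 3.07 (SE 0.96, 0.352), Myl9, at −4.14, −4.21 and −3.96 against −7.37, −6.31 and −5.32, by −2.23 (SE 0.79, 0.448), and Myh11 by −0.60 (SE 0.94, 0.906). The groups of Acta1, Myl1 and Myl9 did not overlap; in all 5 of 17 members were higher and 1 lower without overlap, against 10.1 and 9.5% of all tested probes. Because no deposited value lies below −10, the lowest centred value that an array could show was −9.01 to −8.62 in prominin cultures at 24 h and −8.22 to −7.41 at 108 h; the part of this limit in the differences of the lowest members was not tested. Without centring, which took out −1.06 here, Acta1 differed by 2.54, Myl1 by 2.01 and Myl9 by −3.29. With exact zeros kept Acta1 differed by 0.95 and Myh11 by 0.65, and without prominin 24 h replicate 3 Myh11 differed by −0.29.

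**Figure D5:**
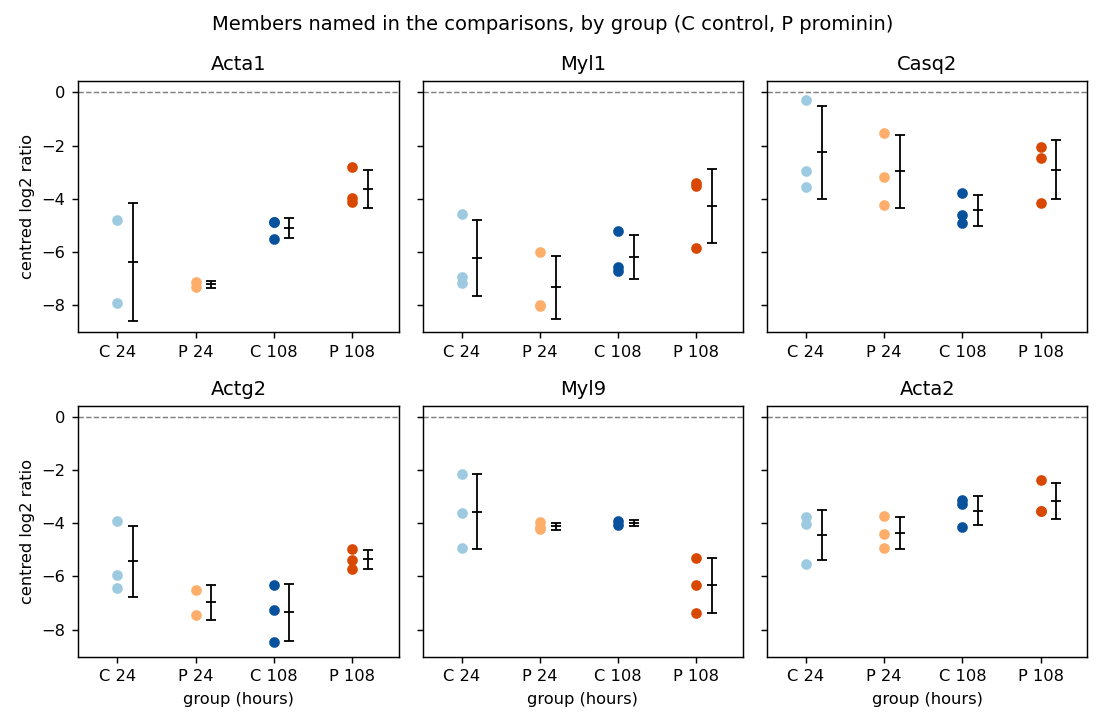
Centred log2 ratios (y axis) of 6 members in control (C) and prominin (P) cultures at 24 and 108 h; points are arrays, and black marks the mean and SD of the measured arrays of a group. Acta1 and Myl1 lie highest in prominin cultures at 108 h and Myl9 lowest there, while none of these differences passed the test.

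Pooled over both treatments, Acta1 differed by 2.43 between 108 h and 24 h (SE 0.66, limma adjusted p = 0.272), Myl1 by 1.56 (SE 0.68, 0.482), Myl9 by −1.33 (SE 0.59, 0.505) and Casq2 by −1.05 (SE 0.70, 0.674). In Acta1 the 24 h controls were −4.81 and −7.94 and those at 108 h −4.88, −5.52 and −4.87, so the arrays of the 2 times overlapped; 0 of 17 members were free of overlap, against 1.1% of all tested probes on the higher side and 0.754% on the lower. With both codes kept the pooled value of Acta1 was −0.17. Leaving out control 24 h replicate 1 took Casq2 to −0.55, and leaving out prominin 24 h replicate 2 to −0.69. The members as a whole had a median of 0.36 in the pooled comparison (12 higher, 5 lower), against −0.04 over all tested probes. The comparisons between groups share arrays with one another, so their values stand side by side and give no support to one another.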

How the data were processed

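The deposited table gives, per the labels, 1 value for each of 21738 probes on each of 12 two-colour arrays. The authors deposited these as numbers taken here for log2 ratios, neurosphere (Cy5) over embryo reference (Cy3). The sources used here name no scanner, image software, background correction or normalization, and arrays give no counts, so their number limits the precision. Gene names came from GEO's platform annotation, in which 16620 probes had 1 symbol, 113 several and 5005 none. Exact 0 and the repeated top value were set to missing. From every array its median over the 4532 probes without a missing value was subtracted (array medians −2.59 to −0.84, mean −1.60). A probe needed 2 or more values in each group, which left 9155, and these were fitted with limma 3.58.1 in R 4.3.3 as 1 mean per group, with moderated variance, and 7 contrasts were adjusted by Benjamini-Hochberg over all tested probes at 0.05. The level contrast is the mean of the 4 group means against 0. The median residual SD was 1.19 and the median SE of a difference 0.99. The fit was tested on simulated data. Each member is accounted for; in each contrast other than the level, those past the threshold are named, and otherwise up to 2 in each direction by smallest p, and of other lists up to 4 by smallest p of the level. Other probes and genes were named after their values were seen. The members, lists and alternatives were chosen with earlier results of these data known, and 2 of the 26 alternatives were added after the values were seen. Python 3.11.15 searched the promoters.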

Additional observations from a re-analysis of the deposited data

How the results depend on the processing

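Each of the 7 comparisons was repeated under 26 settings. No member passed in the 6 comparisons between groups under any of them. The count of members called in the level comparison was 15 of 17, and 29 of 38 with exact zeros kept (26 of them lower) or with both codes kept (28 of them lower), 7 of 8 with at least 3 values in every group and 23 of 28 with at least 1; these settings change how many probes are tested. Over all probes tested, 55.8% were called in either direction, and 36.7, 27.1, 61.7 and 45.1% under these settings in turn. Leaving out 1 array gave 11 to 15 called, of 13 to 16 tested, with 52.8 to 55.7% called over all probes. All were lower except without control 24 h replicate 1. There 13 of 13 were called, 12 of them lower, and Ttn was called above the median probe at 0.60. Without centring the class medians were −7.23 (skeletal), −5.67 (cardiac) and −5.77 (smooth), relative to the reference. The skeletal median was −2.65 with exact zeros kept and −3.13 with both codes kept, over 16 probes. The cardiac median was −5.71 with at least 1 value in every group, and −5.98 without the 2 arrays with the most top codes and the array with rounded ratios, a setting added after the values were seen. Leaving out 1 array gave medians of −5.67 to −5.52, −4.90 to −3.71 and −4.69 to −3.79. Values of members that reversed were, in the level, Ttn (−1.15 without centring, −0.10 centred on all measured probes of an array, −0.53 with exact zeros kept, −1.01 with both codes kept, −0.36 with probes averaged); at 24 h Actg2 (1.56 with exact zeros kept, 1.91 with both codes kept), Ttn (−0.041 without control 24 h replicate 1, with a range of −0.041 to 1.14 over arrays left out, and −0.31 without the 2 arrays with the most top codes) and Myh8 (−0.30 without prominin 24 h replicate 1, with a range of −0.30 to 1.37, and −0.50 without the 2 arrays); at 108 h Myh11 (0.22 with exact zeros kept); in the interaction Myh11 (0.16 with exact zeros kept) and Actg2 (−0.44 with both codes kept); with time in controls Acta1 (−0.77 and −0.63), in prominin cultures Myh11 (0.65 with exact zeros kept) and pooled Acta1 (−0.17 with both codes kept). The cause was not tested. With the replicate number as a block 15 members were called in the level and 0 in the other comparisons. Same-numbered control and prominin arrays had correlations of their deviations of 0.024 to 0.122, and 11 of 12 arrays correlated best with their own number, a hint from the data only. The labels tie the numbers to no shared culture and the lowest correlation was near 0, so the numbers were not taken as pairs.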
